A study of Mus musculus with 8 samples.

Results

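The collagen gene family was followed as 41 genes chosen by symbol in the array annotation, out of 19494 distinct symbols on the array. For 39 of them a transcript cluster, the set of probes that reports 1 gene, was found, and no member lay on more than 1 cluster. Col7a1 and Col12a1 were not analysed here. The members fall into 7 textbook classes: 11 fibrillar genes, 9 of the basement membrane and its zone (8 measured), 3 that form networks, 9 fibril-associated (8 measured), 3 of the beaded filament, 4 transmembrane and 2 others.

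The cells were mouse postnatal tail-tip fibroblasts (TTFs), and the RNA of 8 cultures was read on Clariom S Mouse arrays, 1 array per culture. Each of the 8 cultures received the GHMT retroviruses, which carry the cardiac factors Gata4, Hand2, Mef2c and Tbx5 used to turn fibroblasts toward heart muscle cells, and a compound or the vehicle DMSO was given at the time of infection. The arrays form 2 TTF sets of 4. Set 1 held GHMT alone, GHMT with diclofenac (an inhibitor of cyclooxygenase, which makes the precursor of prostaglandin E2, PGE2), GHMT with an antagonist of EP4 (a PGE2 receptor), and GHMT with diclofenac plus PGE2. Set 2 held GHMT alone and GHMT with the EP4 antagonist, with a TGFb inhibitor or with a Wnt inhibitor. No array held fibroblasts without the factors, so each contrast is between transduced cultures, and GHMT of the same set was the control. The sources used here do not say what a TTF set is beyond its number, nor the strain and exact age of the animals, the doses or the day on which RNA was taken.

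Values are log2 expression levels. The normalized arrays had like distributions: the median over 22142 transcript clusters was 5.28 to 5.29 in set 1 and 5.10 to 5.14 in set 2. The background level is the 95th percentile of 23 background probe sets of the array (5.73 to 5.99), and 43.7% to 45.7% of clusters lay above it. As normalization makes arrays alike, these values do not measure array quality. Of the transduced factors Hand2, Mef2c and Tbx5 lay above background on all 8 arrays and Gata4 on 0 (3.91 to 4.44); no source used here says where these probes lie relative to the delivered coding sequences. The fibroblast label was borne out by its markers, since 9 of 9 measured (Vim, Dcn, Lum and Fn1 among them) lay above background on all 8 arrays. Markers of cardiac muscle were present as well, 6 of 7 on at least 1 array. The cultures are mixtures, in which fewer cells of a type and less RNA per cell cannot be told apart.

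Collagens are extracellular proteins built from chains wound into a triple helix, and each gene codes for 1 kind of chain. Fibrillar collagens make the rope-like fibrils of skin, tendon and scar and are a main product of fibroblasts; basement membrane collagens form the sheets under epithelia and around muscle and vessels; fibril-associated collagens sit on the surface of fibrils; type VI forms beaded microfilaments around cells. TGFb is a well known inducer of fibrillar collagen genes in fibroblasts, and falling matrix expression is a usual measure of the loss of fibroblast character in cardiac reprogramming.

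Promoter windows from RefSeq (mouse build GRCm38.p6, 250 bases before to 50 after an annotated start) were matched to 32 of the 41 members, and 9 had none in the table used here. The windows of Col10a1, Col1a2 and Col3a1 are shown because those genes were 1.00 or more (log2) from GHMT with each blocker in set 1 and within 0.40 of it where PGE2 was added, and that of Col4a4 because it also covers the start of Col4a3, which was higher with the TGFb inhibitor. Capitals mark, on either strand, the CCAAT box, the SMAD-binding word CAGAC, the TATA box as TATAAA and the GC box as GGGCGG, with 0 bases shared by different motifs. They lie at chr10:34389731-34390030 (plus strand) for Col10a1, chr6:4505368-4505667 (plus) for Col1a2, chr1:45311288-45311587 (plus) for Col3a1 and chr1:82586800-82587099 (minus) for Col4a4, each read 5′ to 3′ along the gene.
Col10a1: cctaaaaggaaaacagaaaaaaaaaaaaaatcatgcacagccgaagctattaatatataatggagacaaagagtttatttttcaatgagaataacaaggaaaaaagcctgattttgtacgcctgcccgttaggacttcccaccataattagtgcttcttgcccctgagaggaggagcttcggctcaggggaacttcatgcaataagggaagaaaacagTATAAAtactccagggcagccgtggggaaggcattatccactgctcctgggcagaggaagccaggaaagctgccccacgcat
Col1a2: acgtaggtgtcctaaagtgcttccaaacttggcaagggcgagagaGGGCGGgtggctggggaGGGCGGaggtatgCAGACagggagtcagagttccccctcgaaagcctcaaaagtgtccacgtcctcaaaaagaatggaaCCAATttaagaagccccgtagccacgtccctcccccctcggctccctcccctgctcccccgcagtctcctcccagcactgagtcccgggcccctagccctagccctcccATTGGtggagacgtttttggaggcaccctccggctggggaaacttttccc
Col3a1: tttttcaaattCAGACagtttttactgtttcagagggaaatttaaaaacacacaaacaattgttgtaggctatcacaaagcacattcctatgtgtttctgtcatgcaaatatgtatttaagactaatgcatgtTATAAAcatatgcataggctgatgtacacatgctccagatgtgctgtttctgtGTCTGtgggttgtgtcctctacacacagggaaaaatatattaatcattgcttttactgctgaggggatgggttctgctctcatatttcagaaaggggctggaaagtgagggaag
Col4a4: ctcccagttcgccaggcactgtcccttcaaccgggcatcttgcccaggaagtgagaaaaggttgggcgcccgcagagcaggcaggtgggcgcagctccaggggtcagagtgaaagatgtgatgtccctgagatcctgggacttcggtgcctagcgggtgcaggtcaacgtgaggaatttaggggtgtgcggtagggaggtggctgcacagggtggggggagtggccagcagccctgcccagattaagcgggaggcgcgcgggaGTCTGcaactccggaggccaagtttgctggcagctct

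The Col10a1 window held a TATAAA at base -32 from the start and none of the other 3 motifs. The Col3a1 window held TATAAA at -117 and CAGAC at -239 and, on the other strand, at -64. The Col1a2 window held no TATAAA but CCAAT at -109 and on the other strand at 1, CAGAC at -175 and GGGCGG at -205 and -188. Over the 32 members with a window, CCAAT was found in 12 (37.5%, against 37.4% of all 32851 windows), CAGAC in 19 (59.4% against 49.6%), TATAAA in 5 (15.6% against 13.6%) and GGGCGG in 19 (59.4% against 35.7%). The GATA-like words AGATAA or TGATAA were in 3 (9.38% against 18.6%), the cAMP response word TGACGTCA in Col24a1 alone (3.13% against 1.79%) and a MEF2 motif in Col13a1 alone (3.13% against 3.19%). Both strands were searched throughout, and a match is a description of letters, not a binding site.

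The type IV genes are arranged in head-to-head pairs, and the stretch between the Col4a1 and Col4a2 starts is shown because the data for this pair are set side by side further on. The starts are 21 bases apart on opposite strands of chromosome 8, and the stretch below lies at chr8:11312777-11312854 (plus strand), with the 2 annotated starts in capitals.
Col4a1 and Col4a2: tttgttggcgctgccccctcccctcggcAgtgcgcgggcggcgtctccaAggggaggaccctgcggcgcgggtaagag

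The annotated Col4a3 and Col4a4 genes overlap by 114 bases on chromosome 1, Col4a5 and Col4a6 are separated by 1274 bases on chromosome X, and Col3a1 and Col5a2 lie 24624 bases apart on chromosome 1.

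Of the 39 measured members, 15 lay above background on all 8 arrays, 8 on some and 16 on none. The 15 were Col1a1, Col1a2, Col3a1, Col5a1, Col5a2, Col4a1, Col4a2, Col4a5, Col18a1, Col8a2, Col10a1, Col16a1, Col6a1, Col6a2 and Col6a3. The 16 at background throughout, with values from 2.96 to 5.96, included the cartilage genes Col2a1, Col9a1, Col9a2 and Col9a3, the fibril-associated Col14a1 and the hemidesmosome gene Col17a1. Above background on at least 1 array were 8 of 11 fibrillar genes, 5 of 8 of the basement membrane, 3 of 3 network formers, 1 of 8 fibril-associated, 3 of 3 type VI, 2 of 4 transmembrane and 1 of 2 other genes.

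**Figure D1:**
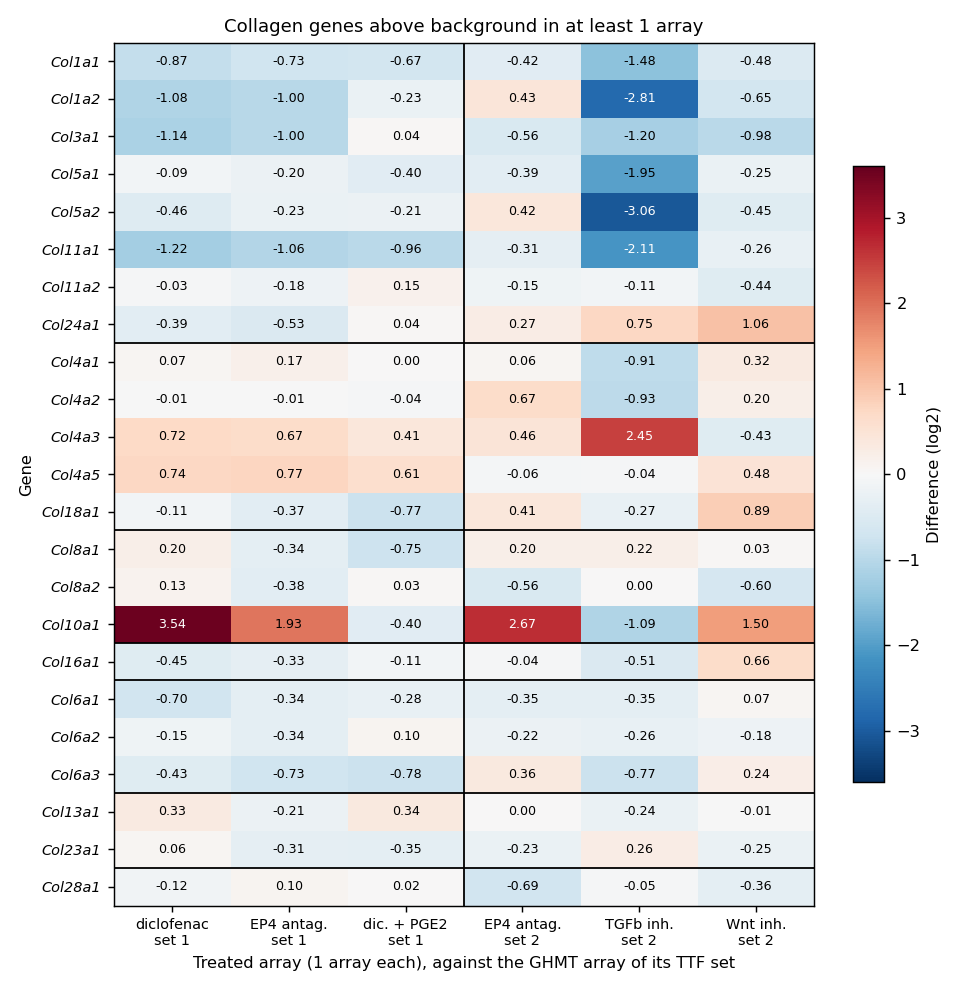
Difference (log2) of each treated array (columns, 1 array each) from the GHMT array of its TTF set for the 23 collagen genes above background on at least 1 array (rows, lines between classes). Col10a1 stands out in red with diclofenac (3.54) and the EP4 antagonist (1.93 and 2.67), and the fibrillar genes Col5a2 (-3.06) and Col1a2 (-2.81) in blue with the TGFb inhibitor.

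The question put to the prostaglandin arrays was whether blocking PGE2 synthesis or its receptor EP4 alters the transduced fibroblasts. Col10a1, a network-forming collagen known from hypertrophic cartilage, was higher with both blockers and back near control when PGE2 was added to diclofenac. Of the fibrillar genes, Col3a1, Col1a2 and Col11a1 were lower by 1.00 to 1.22 (log2) with both blockers in set 1, and PGE2 was accompanied by control levels of Col3a1. With 3 arrays inhibited (diclofenac, EP4 antagonist) against 3 active (GHMT, diclofenac plus PGE2), Col10a1 was the only one of 39 members past the threshold, and it passed only with the TTF set as a block.

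Col10a1 was at 7.28 with GHMT in set 1, 10.82 with diclofenac, 9.21 with the EP4 antagonist and 6.88 with diclofenac plus PGE2. In set 2 its values were 8.44 with GHMT, 11.11 with the EP4 antagonist, 7.35 with the TGFb inhibitor and 9.94 with the Wnt inhibitor. The 3 arrays with prostaglandin signalling blocked and the Wnt inhibitor array were therefore the highest. This is 11.6-fold above control with diclofenac, 3.81-fold and 6.36-fold with the EP4 antagonist in sets 1 and 2, and 2.83-fold with the Wnt inhibitor. With PGE2 the level was 15.3-fold below diclofenac alone, and with the TGFb inhibitor 2.13-fold below control.

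Fitted over all clusters with limma and the set as a block, Col10a1 was higher by 2.85 ± 0.34 (SE) in the inhibited arrays, with a Benjamini-Hochberg adjusted p of 0.0173, and 0.379% of all clusters passed in that fit (0.257% higher, 0.122% lower). Without the block, which was the main test, the standard error was 0.55, the adjusted p 0.833, and 0 of 22142 clusters passed (468 at an unadjusted p under 0.05; smallest adjusted p 0.0681). The blocked call was lost without the diclofenac plus PGE2 array (adjusted p 0.0627 by limma) and without the GHMT or EP4 antagonist array of set 2 (0.154), with differences of 2.71 and 2.94. In the EP4 antagonist against GHMT alone, 2 arrays against 2, Col10a1 was higher by 2.30 ± 0.25 (SE, block), with limma's adjusted p at 0.394. In that comparison 0 clusters were called (0% of 22142) without the block (143 unadjusted) and 0 with it (1254 unadjusted).

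Markers of the tissue that Col10a1 is known for were followed beside it. Of 9 chondrocyte markers, 2 were above background on any array, Sox9 on 8 and Comp on 3. Sox9 was at 8.13 with GHMT, 7.34 with diclofenac, 7.27 with the EP4 antagonist and 8.00 with diclofenac plus PGE2 in set 1. In set 2 it was at 9.62 with GHMT, 7.82 with the EP4 antagonist, 8.16 with the TGFb inhibitor and 10.80 with the Wnt inhibitor. Comp was above background with GHMT of set 1 (6.45), diclofenac plus PGE2 (5.84) and the Wnt inhibitor (7.69), and with no blocker alone. Acan, Matn1, Matn3, Hapln1, Chad, Cnmd and Snorc were at background on all. Of 5 hypertrophic chondrocyte markers, Ihh, Panx3 and Sp7 were at background on all arrays and Pth1r just above it on 6 (5.89 to 6.40). Mmp13, a collagenase, was at 8.67 with GHMT, 9.53 with diclofenac, 9.08 with the EP4 antagonist and 10.62 with diclofenac plus PGE2 in set 1. In set 2 it was at 11.05 with GHMT, 10.68 with the EP4 antagonist, 9.79 with the TGFb inhibitor and 13.10 with the Wnt inhibitor. Its highest array in set 1 was thus the one in which Col10a1 was lowest. The summed level of the list ranged from 9.03 to 13.12, and that of the chondrocyte list from 8.29 to 11.02.

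The 5 genes outside the family whose 6 within-set differences from GHMT ran most like those of Col10a1, out of 11072 ranked, were Rae1 (Pearson r = 0.995), Txndc12 (0.988), Mal (0.985), Slc7a5 (0.975) and Spryd3 (0.973). The differences share the 2 GHMT arrays, and the likeness is one of shape only. Of the 5, Mal, a membrane protein of myelin and epithelia, had differences of 1.52 with diclofenac, 0.98 and 1.05 with the EP4 antagonist, -0.72 with diclofenac plus PGE2, -1.39 with the TGFb inhibitor and 0.59 with the Wnt inhibitor. Those of Rae1 lay between -0.26 and 0.16.

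**Figure D2:**
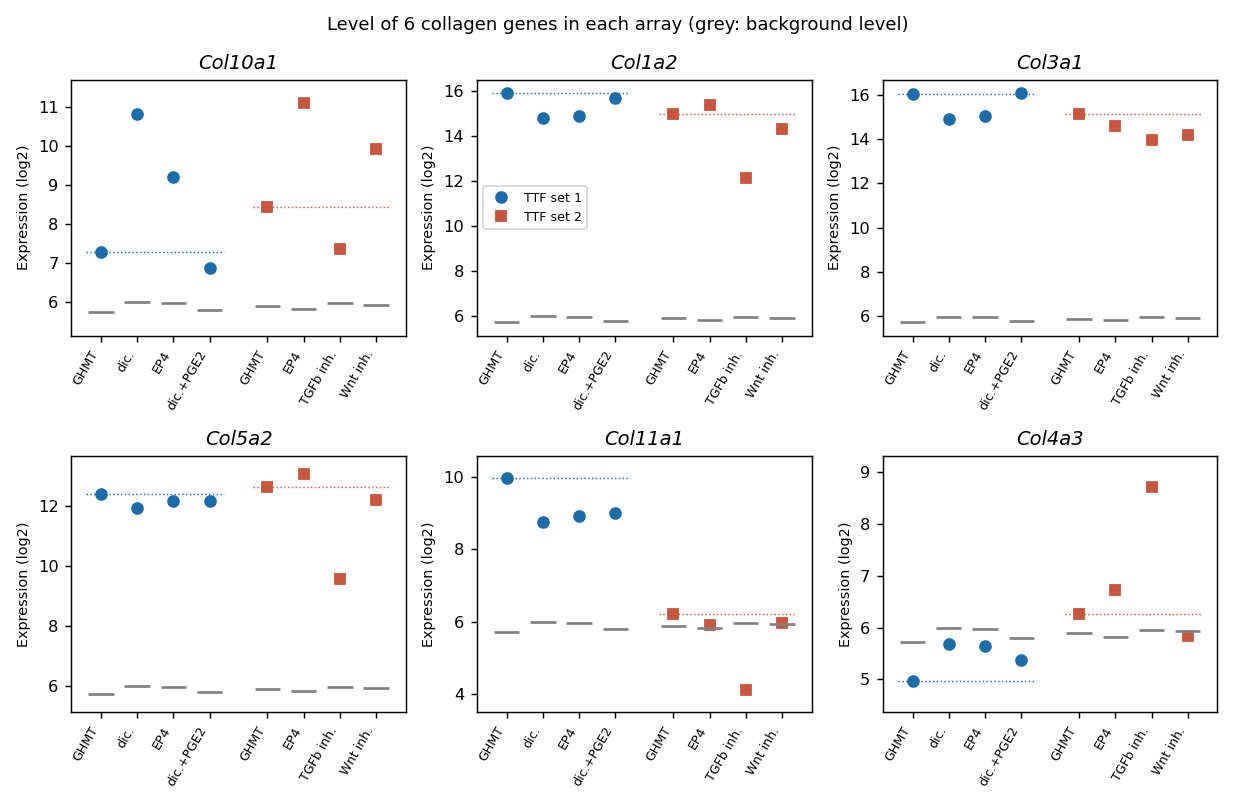
Level (log2) of 6 collagen genes on each of the 8 arrays, set 1 as blue circles and set 2 as red squares; dotted lines mark GHMT of the set and grey bars the array's background level. Col10a1 is highest with diclofenac (10.82) and the EP4 antagonist of set 2 (11.11), Col11a1 is near background throughout set 2, and Col4a3 is well above it with the TGFb inhibitor alone (8.71).

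Types I and III are the bulk fibrillar collagens of skin. Col1a1, the alpha 1 chain of type I, was at 17.38 with GHMT in set 1 and 16.51, 16.65 and 16.71 with diclofenac, the EP4 antagonist and diclofenac plus PGE2. In set 2 it was at 16.76 with GHMT and 16.34, 15.28 and 16.28 with the EP4 antagonist, the TGFb inhibitor and the Wnt inhibitor. It was below its control in 6 of 6 treated arrays, with differences of -0.42 to -1.48, also where PGE2 was added. Its partner chain Col1a2 was at 15.89, 14.81, 14.89 and 15.66 in set 1 and 14.95, 15.38, 12.14 and 14.30 in set 2, in the same order of arrays. Here the diclofenac plus PGE2 array lay within 0.23 of control, and the EP4 antagonist array was 0.43 above control in set 2 but 1.00 below it in set 1.

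Col3a1, the only chain of type III, was at 16.03, 14.89, 15.03 and 16.07 in set 1 and 15.14, 14.58, 13.94 and 14.16 in set 2. In set 1 the 2 blocked arrays were 2.20-fold and 2.00-fold below GHMT, and the array with PGE2 added was 2.27-fold above diclofenac and 0.04 above GHMT (-0.10 after quantile normalization). In set 2 all 3 treated arrays were lower, by 0.56, 1.20 and 0.98. Across the inhibited and active arrays its difference was -0.91 ± 0.17 (SE, block), and limma's adjusted p of 0.0616 missed the threshold. The highest blocked array was the EP4 antagonist of set 1 (15.03) and the lowest active array GHMT of set 2 (15.14). The share of all clusters with groups apart in this way was not counted.

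Types V and XI are minor fibrillar collagens that start fibrils and set their width. Col5a1 was at 13.07, 12.98, 12.87 and 12.67 in set 1 and 13.75, 13.36, 11.80 and 13.50 in set 2. Col5a2 was at 12.38, 11.92, 12.15 and 12.17 in set 1 and 12.63, 13.05, 9.57 and 12.18 in set 2. Apart from the TGFb inhibitor array, both stayed within 0.46 of the control of their set. Col11a1 was at 9.98, 8.76, 8.92 and 9.02 in set 1 and 6.22, 5.91, 4.11 and 5.96 in set 2. All 3 treated arrays of set 1 were lower, by 1.22, 1.06 and 0.96, the array with PGE2 among them. In set 2 it lay close to background, so that the size of a difference there is not well measured.

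Over the 8 fibrillar genes above background on at least 1 array, 8 of 8 were below control with diclofenac (median -0.67, with 3 at 2-fold or more lower) and 8 of 8 with the EP4 antagonist in set 1 (median -0.63, 3 at 2-fold or more lower). Over all clusters, 0.768% and 0.786% were that much lower in these contrasts, and the medians were -0.01 and -0.01. Of the 10910 clusters above background on at least 1 array, 5178 and 5488 were below control. Col24a1 is counted among the 8 here and below, but was at background on every diclofenac, PGE2, EP4 antagonist and GHMT array. With PGE2 added, 7 of 8 were higher than with diclofenac alone (median 0.26), as were 5640 of the 10910 clusters. Of the 8, 1 (Col3a1) was at 2-fold or more, against 0.849% of all clusters. The EP4 antagonist in set 2 gave a median of -0.23 with 5 of 8 lower and 0 at 2-fold (1.43% of all clusters). There 5551 of the 10910 clusters were lower. The set 1 contrasts share 1 GHMT array, which was the highest of set 1 for Col1a1, Col1a2, Col5a1, Col5a2 and Col11a1.

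By limma with the block, the median over these 8 fibrillar genes was -0.34 for inhibited against active (8 of 8 negative). For the EP4 antagonist against GHMT it was -0.29 (7 of 8 negative), and the median over all clusters was -0.01 in both. Col24a1, at background on all arrays of both comparisons, is among the negative genes in each. None of the 8 passed after adjustment over all clusters, and 3 had an unadjusted p under 0.05 in each comparison (8.68% and 5.66% of all clusters did). Col1a1 differed by -0.45 ± 0.19 (adjusted p 0.551), Col1a2 by -0.47 ± 0.25 (0.674) and Col11a1 by -0.54 ± 0.24 (0.560) between inhibited and active arrays. Across all 39 members, 5 of 39 had an unadjusted p under 0.05 in that comparison, 3 of them lower, where 8.68% of all clusters did. For the cardiomyocyte marker list the summed level was 17.62 and 17.64 with GHMT, 18.34 with diclofenac and 18.29 and 18.30 with the EP4 antagonist. With diclofenac plus PGE2 it was 18.06, but the genes of the list were divided there. Tnnt2 (17.96 against 17.50 with GHMT of set 1) and Nppa (13.66 against 12.26) were higher. Myh6 (5.99 against 6.89), Actc1 (11.67 against 12.72), Ryr2 (9.94 against 10.58) and Myl7 (10.48 against 11.42) were lower, and Tnni3 was at background. The summed level of the fibroblast list was 19.96 with GHMT, 19.77 with diclofenac, 19.78 with the EP4 antagonist and 19.97 with diclofenac plus PGE2 in set 1, and 19.47 with GHMT and 19.45 with the EP4 antagonist in set 2. Within it, the proteoglycan gene Dcn was at 17.35, 16.67, 16.63 and 17.08 in set 1 and at 15.98 and 14.28 in set 2, and Lum at 14.61, 13.73, 13.94 and 14.17 in set 1 and at 12.29 and 10.68 in set 2. Both were thus lower with each blocker than with GHMT of the set. So were Thy1, Fn1 and Fbln2, the last by little in set 2 (14.16 against 14.18). The other measured markers of the list were divided. Pdgfrb, Vim and S100a4 were lower with each blocker in set 1 but higher with the EP4 antagonist in set 2 (S100a4 14.15 against 13.34). Twist2 was higher with both blockers in set 1 (8.56 with diclofenac against 8.33) and lower in set 2 (9.77 against 11.14). The part of these markers in the collagen differences was not tested.

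**Figure D3:**
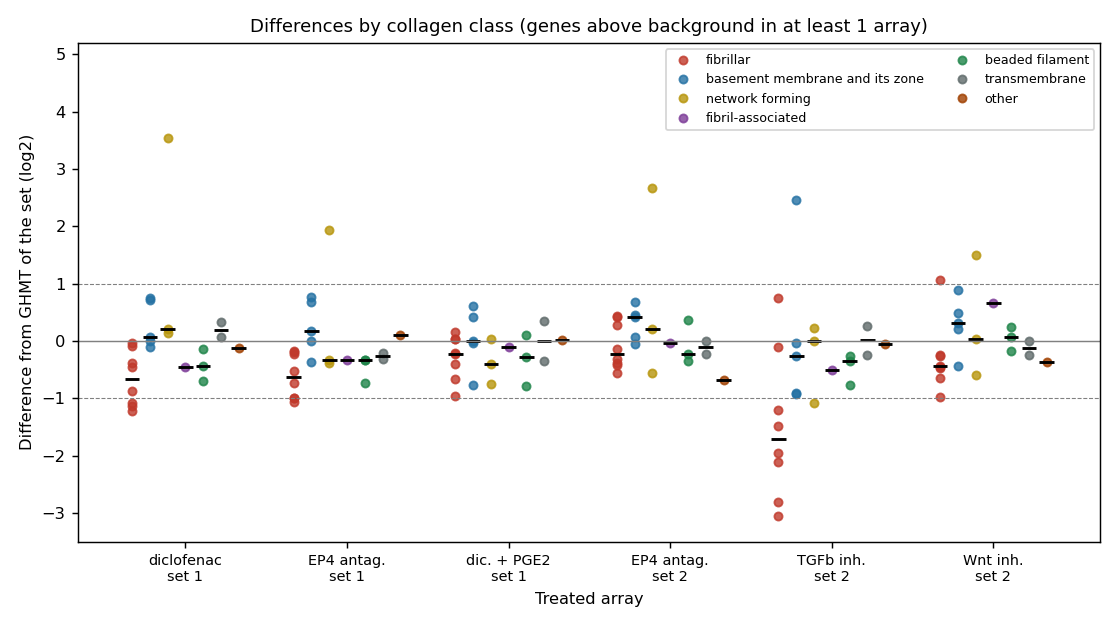
Difference (log2) from GHMT of the set for the 23 collagen genes above background on at least 1 array, by class (colour) and treated array; each point is 1 gene on 1 array, black bars are medians and dashed lines mark 2-fold. Fibrillar genes have medians of -0.67 and -0.63 with diclofenac and the EP4 antagonist in set 1 and -1.72 with the TGFb inhibitor. There 6 of 8 lie past the 2-fold line, 1 of them (Col11a1) with a level under background. Basement membrane genes have medians of 0.07 and 0.17 with diclofenac and the EP4 antagonist in set 1 and -0.27 with the TGFb inhibitor. With the EP4 antagonist in set 2 their median is 0.41, against -0.23 for fibrillar genes.

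The TGFb inhibitor array shows the transduced cells with a different signal blocked. It had the largest collagen differences of any treated array by count, with 9 of 39 members at 2-fold or more (7 lower, 2 higher), against 5.36% of all clusters (2.52% lower, 2.85% higher). Of the 7, 6 were fibrillar: Col5a2 was 8.34-fold below GHMT of set 2, Col1a2 7.01-fold, Col5a1 3.86-fold, Col1a1 2.79-fold and Col3a1 2.30-fold, and Col11a1 was at least 1.20-fold lower, its level of 4.11 being under background. Col10a1 was the seventh. The median over the 8 fibrillar genes was -1.72, and over all clusters -0.01. This is 1 array against 1, with no replicate check.

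In types I and V the partner chains were unequal in that array. The type I trimer holds more alpha 1 than alpha 2 chains, and the difference was -1.48 for Col1a1 and -2.81 for Col1a2. For type V it was -1.95 for Col5a1 and -3.06 for Col5a2. In each pair the alpha 2 gene was lower by over 1 unit more than its partner. A gap of that size between partner chains was not seen for type I or V in the other 5 treated arrays, where the widest was 0.85, for Col1a1 and Col1a2 with the EP4 antagonist in set 2.

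Col24a1, a minor fibrillar gene, was above background on the Wnt inhibitor array alone (6.14, against 5.08 with GHMT of set 2 and 4.81 to 5.83 on the other arrays), which is at least 1.18-fold above GHMT. With the Wnt inhibitor 2 of 39 members were at 2-fold or more, Col10a1 and Col24a1, both higher (2.52% of all clusters were, and 1.57% lower, 4.1% either way). Fibrillar genes had a median of -0.45 (7 of 8 lower, 0 of them by 2-fold, and Col24a1 higher), with Col3a1 1.97-fold below control. Among the 10910 clusters above background on at least 1 array, 5904 were lower there (median -0.05). Col11a2 ranged from 5.64 to 6.49 over the 8 arrays and lay above background on 7. Col2a1, Col5a3 and Col27a1 were at background throughout.

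Over the 5 basement membrane collagens above background on at least 1 array, the median difference of inhibited from active arrays was 0.23. In that fit 0 of 5 were negative and none was called (limma, block). Against GHMT in set 1, however, 2 of 5 were lower with each blocker. These were Col4a2 (-0.01 with diclofenac and -0.01 with the EP4 antagonist) and Col18a1 (-0.11 and -0.37). Col4a3 was at background on all arrays of set 1. Type IV is made in most tissues from Col4a1 and Col4a2 chains. Col4a1 was at 7.61, 7.68, 7.78 and 7.61 in set 1 and 9.15, 9.21, 8.24 and 9.47 in set 2. Col4a2 was at 10.70, 10.69, 10.69 and 10.66 in set 1 and 10.91, 11.58, 9.98 and 11.11 in set 2. In set 1 both lay within 0.17 of control in all 3 treated arrays, and with the TGFb inhibitor both were lower by about the same amount, 0.91 and 0.93. They parted with the EP4 antagonist in set 2, where Col4a2 was 0.67 above control and Col4a1 0.06, and between the GHMT arrays, where Col4a1 was 1.54 higher in set 2 and Col4a2 0.21 (-0.17 after quantile normalization).

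Col4a3, a chain of the type IV network of kidney and lung basement membranes, was above background on 3 arrays, all of set 2. It was at 4.97, 5.69, 5.64 and 5.38 in set 1, and in set 2 at 6.26 with GHMT, 6.72 with the EP4 antagonist, 8.71 with the TGFb inhibitor and 5.83 with the Wnt inhibitor. The TGFb inhibitor array was 5.46-fold above GHMT. On the same array 6 of 8 fibrillar genes were lower by 1.00 or more (log2), among them Col11a1, whose level there was under background. Its neighbour Col4a4, which shares the promoter region shown above, was highest on that array too (5.96 against 4.77 with GHMT) but did not exceed background on any array; it was picked out after its values were seen. Between inhibited and active arrays Col4a3 differed by 0.48 ± 0.16 (SE, block; limma adjusted p 0.385).

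Col4a5, on the X chromosome, was at 7.31, 8.05, 8.08 and 7.92 in set 1 and 6.94, 6.88, 6.90 and 7.42 in set 2. All 3 treated arrays of set 1 were higher, by 0.74, 0.77 and 0.61, whether or not PGE2 was present, and in set 2 the EP4 antagonist array was 0.06 lower. Its head-to-head neighbour Col4a6 stayed at background (4.04 to 4.55). Col18a1, the source of endostatin, was at 10.16, 10.05, 9.79 and 9.39 in set 1 and 9.44, 9.85, 9.17 and 10.33 in set 2. It was lowest of set 1 with diclofenac plus PGE2 and highest of set 2 with the Wnt inhibitor, by -0.77 and 0.89 from control. Col15a1, its closest relative, was at background on all 8 arrays (3.73, 4.76, 4.23 and 4.21 in set 1, 4.06, 4.21, 3.64 and 4.52 in set 2), so the difference of 1.03 that counts it among the 2-fold members with diclofenac gives no fold.

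In whole-family counts, diclofenac had 5 of 39 members at 2-fold or more (2 higher, 3 lower; 1.82% of all clusters, 1.05% higher) and the EP4 antagonist 4 in set 1 (1 higher, 3 lower; 1.6% of all clusters, 0.813% higher) and 1 in set 2 (Col10a1; 2.72% of all clusters, 1.29% higher). Diclofenac plus PGE2 had 0 of 39 against GHMT (1.82% of all clusters; 0.894% higher and 0.921% lower) and 2 against diclofenac, Col3a1 higher and Col10a1 lower (2.16% of all clusters, 1.31% lower). The set 1 contrasts share arrays, so these counts are not independent of each other.

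Type VI, a microfilament collagen of the cell surroundings, lay above background on all 8 arrays with each of its 3 chains. Col6a1 was at 12.43, 11.73, 12.09 and 12.15 in set 1 and 12.58, 12.23, 12.23 and 12.65 in set 2. Col6a2, its neighbour on chromosome 10, was at 12.55, 12.40, 12.21 and 12.65 in set 1 and 12.60, 12.38, 12.34 and 12.42 in set 2, a spread of 12.21 to 12.65. Col6a3 was at 13.48, 13.05, 12.75 and 12.70 in set 1 and 12.96, 13.32, 12.19 and 13.20 in set 2. No type VI gene differed by 2-fold from its control on any array, and with the TGFb inhibitor the 3 were at -0.35, -0.26 and -0.77. For inhibited against active arrays the median of the 3 was -0.27 (3 of 3 negative; Col6a1 -0.37 ± 0.17, SE, limma adjusted p 0.576, block).

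Of the fibril-associated genes only Col16a1 exceeded background on any array, at 8.41, 7.96, 8.08 and 8.30 in set 1 and 8.40, 8.36, 7.89 and 9.06 in set 2, and its largest distance from control was 0.66, with the Wnt inhibitor. Col14a1, which binds fibrils of skin and tendon, was at 5.06, 4.95, 5.15 and 4.39 in set 1 and 3.84, 4.00, 4.27 and 4.34 in set 2, under background on each. The other 2 network formers are the type VIII chains of vessel and corneal membranes. Col8a2 was above background on all arrays (6.08 to 7.74) and within 0.60 of control, and Col8a1 exceeded background on 1 (5.04 to 5.99). Among transmembrane collagens Col13a1 exceeded background on 2 arrays (4.41 to 6.03) and Col23a1 on 4, the 4 of set 2 (6.00 to 6.51 there, 5.00 to 5.41 in set 1). Col28a1 exceeded it on 2 arrays (5.37 to 6.08), and Col17a1, Col25a1 and Col26a1 on 0.

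The TTF sets themselves differed. Between the GHMT arrays, 11 of 39 members were 2-fold or more apart (3 higher and 8 lower in set 2), where 13.7% of all clusters were (6.47% higher, 7.22% lower); the median over all clusters was -0.16 and over the family -0.26. Of the 8 lower members, 2 were above background on any of the 8 arrays. Col11a1 was 13.5-fold lower in set 2. Col4a1 was 2.91-fold higher, Col10a1 2.23-fold and Col4a3 at least 1.44-fold. With 1 GHMT array a set, what distinguishes the sets cannot be told apart from the spread of single arrays.

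Collagen chains need a line of enzymes and carriers to become fibrils, and 51 genes of it were listed in 5 roles, of which 45 were measured and 38 lay above background on at least 1 array; Plod3, Fkbp10, Adamts2, Loxl2, Itga1 and Itga10 were not analysed here. In the limma fit with the block, 1 of the 45 passed for inhibited against active (0 without the block): P4ha2, a subunit of the prolyl 4-hydroxylase that stabilises the helix, fell, with a log2 difference of -1.10 ± 0.15 (SE; adjusted p 0.0218). Over all clusters 0.379% passed in that fit. Counting P4ha2, 10 of the 45 had an unadjusted p under 0.05, 7 of them lower, where 8.68% of all clusters did. P4ha2 was at 10.99 with GHMT, 10.00 with diclofenac, 9.79 with the EP4 antagonist and 11.05 with diclofenac plus PGE2 in set 1. In set 2 it was at 12.50 with GHMT and 11.46, 10.83 and 11.56 with the EP4 antagonist, the TGFb inhibitor and the Wnt inhibitor. Each treated array without added PGE2 was thus 0.94 to 1.67 below its control, and the one with PGE2 was 0.06 above. The call was lost without diclofenac (limma adjusted p 0.116), EP4 antagonist replicate 1 (0.173), diclofenac plus PGE2 (0.0842) or either array of set 2 (0.154). For the EP4 antagonist against GHMT the difference was -1.12 ± 0.20 (SE, block; limma adjusted p 0.560).

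**Figure D4:**
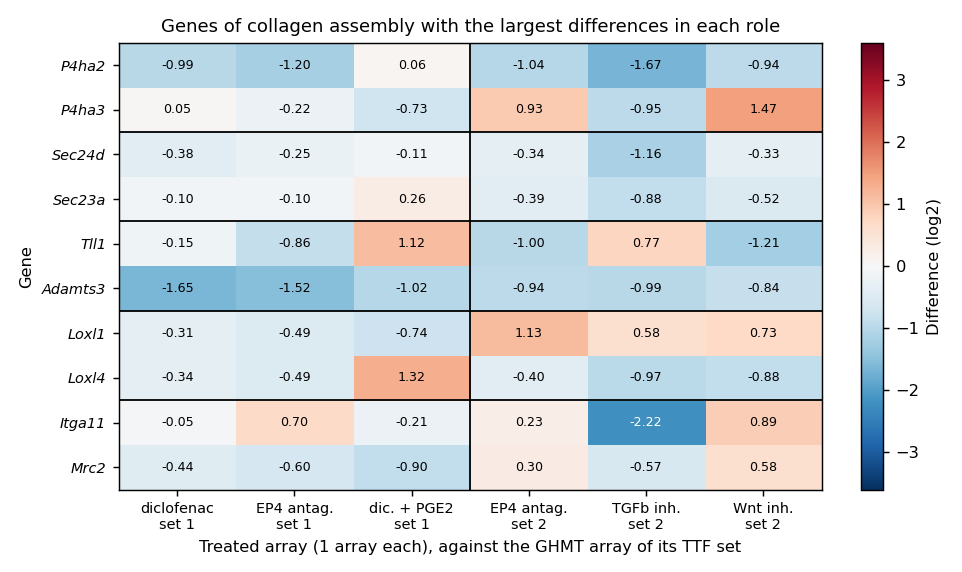
Difference (log2) of each treated array from the GHMT array of its TTF set for 10 genes of collagen assembly, the 2 of each role with the largest mean absolute difference. P4ha2 is lower in every column (-0.94 to -1.67) except diclofenac plus PGE2 (0.06). The TGFb inhibitor column is negative for 8 of the 10, and for 5757 of the 10910 clusters above background on at least 1 array. Adamts3 and Itga11, among the 8, are at background on both arrays compared there.

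With the TGFb inhibitor the assembly list was lower too: the median over 45 was -0.50, and 29 of the 38 above background on at least 1 array were negative. Among all clusters, 5757 of the 10910 above background on at least 1 array were negative. Of the list 7 were 2-fold or more lower and 2 higher, against 2.52% and 2.85% of all clusters. All 15 genes of hydroxylation, glycosylation and chaperoning above background were below control (median -0.60), P4ha2 by 1.67 and the lysyl hydroxylase Plod2, at 13.37 with GHMT and 11.54 with the inhibitor, by 1.83. Of the secretion genes Sec24d, a coat protein of the vesicles that carry procollagen, was at 11.95 and 10.79, and Sec23a at 13.70 and 12.82. The crosslinking enzyme Lox was at 17.85 and 16.23, whereas its relative Loxl1 was at 12.89 and 13.47. The collagen-binding integrin gene Itga11, counted among the 7, was at 5.57 and 3.35, both at background. The 2 higher were Pcolce2, which enhances cleavage of the procollagen tail (9.57 and 11.07), and the collagen receptor Ddr1 (9.15 and 10.28). Among fibroblast markers on this array Fn1 was at 15.43 against 17.93 and Fbln2 at 11.55 against 14.18, while Dcn (17.13 against 15.98) and Thy1 (12.33 against 11.10) were higher; all 9 stayed above background, and their summed level was 19.28 against 19.47. The summed level of the cardiomyocyte list was 18.40 against 17.64 (Myl7 13.03 against 9.60), and that of the smooth muscle list 14.19 against 15.36 (Cnn1 10.70 against 12.66, Tagln 13.89 against 15.03). The part of these lists in the collagen differences was not tested.

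The remaining named genes of this list had no common profile over the arrays. P4ha3 was at 8.06, 8.11, 7.84 and 7.33 in set 1 and 8.08, 9.01, 7.13 and 9.55 in set 2, highest with the Wnt inhibitor. Loxl1 was below GHMT in all treated arrays of set 1 (12.57 against 12.26, 12.08 and 11.83) and above it in all 3 of set 2. Loxl4 was at 7.65, 7.31, 7.16 and 8.97 in set 1, highest where PGE2 was added, and at 8.98, 8.58, 8.01 and 8.10 in set 2. The propeptide proteases Adamts3 and Tll1 exceeded background on 1 and 3 arrays, Adamts3 only with GHMT of set 1 (6.76) and Tll1 with diclofenac plus PGE2 (5.92), GHMT of set 2 (6.36) and the TGFb inhibitor (7.13). Mrc2, which takes up collagen for breakdown, was at 13.82, 13.38, 13.22 and 12.92 in set 1 and 12.88, 13.18, 12.31 and 13.46 in set 2.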

How the data were processed

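RNA of 8 cultures was measured on Clariom S Mouse arrays. The deposited values are log2 levels that the authors made with the SST-RMA algorithm, an array summary and normalization, per the series' design text, in Affymetrix Expression Console 1.4, per the submitters' processing notes. No source used here says if all 8 arrays went through it in 1 run or names a genome build for the array; promoter windows and positions are RefSeq's (GRCm38.p6). A gene symbol was joined to 19527 of 22142 transcript clusters, and 33 symbols lay on more than 1 cluster, of which the one with the highest mean was used. The other 6704 of 28846 rows were left out as controls. The background rule is described in the report. A fold against a level at background is a lower bound.

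Tested were EP4 antagonist against GHMT arrays (2 and 2) and inhibited arrays (diclofenac, EP4 antagonist) against active ones (GHMT and diclofenac plus PGE2, 3 and 3). Both were fitted with limma 3.58.1 (lmFit, eBayes) in R 4.3.3 over all clusters, two-sided, at a Benjamini-Hochberg adjusted p under 0.05. The main fit had no block. The code was first run on simulated data. For the fit without the block these held no difference between TTF sets. That run therefore does not show how the main fit behaves where the sets differ. The TTF set as a replicate block was an alternative, and the set numbers pair the arrays because the labels attach them to the fibroblasts: arrays correlated at 0.986 to 0.995 within and 0.974 to 0.984 between sets, and deviations of same-numbered arrays from their group means correlated (r = 0.725 across genes, which are not independent). Other contrasts were 1 array against 1, counted at 2-fold, with no test. No label says that the arrays come from separate experiments; the p-values therefore cover only the spread among these 8 arrays, which may be technical. Named were 14 collagens listed by name and measured, those above background on some array and 2-fold from control in any treated array, those past a threshold, and of each assembly role the 2 with the largest mean absolute difference above background. The 10 marker lists, the gene lists and the members were chosen with earlier results of these data known. Alternatives were other normalizations, priors, filters, fold limits, the block and each array left out.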

Additional observations from a re-analysis of the deposited data

Results flagged for a closer look

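For 9 of the 23 collagen genes above background on at least 1 array, the EP4 antagonist array differed from its GHMT control in opposite directions in the TTF sets (39.1%); this held for 47.4% of all transcript clusters, so the share is no result about the family. It was below control in set 1 and above it in set 2 for 7 genes. For Col1a2 the differences (log2) were -1.0 and 0.43, a gap of 1.43 between the sets. For Col6a3 they were -0.73 and 0.36 (gap 1.09), for Col24a1 -0.53 and 0.27 (gap 0.80, at background on these 4 arrays), for Col18a1 -0.37 and 0.41 (gap 0.78) and for Col4a2 -0.01 and 0.67 (gap 0.68). For Col5a2 they were -0.23 and 0.42 (gap 0.65) and for Col8a1 -0.34 and 0.20 (gap 0.54). Of these 4 arrays Col8a1 exceeded background only with GHMT of set 1. The EP4 antagonist array was above control in set 1 and below it in set 2 for Col4a5 (0.77 and -0.06, gap -0.83) and Col28a1 (0.10 and -0.69, gap -0.79). Col28a1 exceeded background on these 4 arrays only with GHMT of set 2. With 1 array of each treatment in a set, the difference between the sets was not tested. No group held enough arrays to look for an outlying one.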

How the results depend on the processing

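With the TTF set as a replicate block, the inhibited against active comparison went from 0 to 84 called clusters and from 0 to 1 called collagen (Col10a1); the EP4 antagonist comparison stayed at 0 and 0. Combinations of the block with a second choice were added after seeing the data. With the block and a trended robust prior, the called clusters were 15 for the EP4 antagonist and 143 for inhibited against active, and the called collagens 1 and 2. With the block and quantile normalization they were 28 and 78, and 1 and 1. With the block and the background filter they were 1 and 118, and 0 and 2. In these fits Col10a1 was called for the EP4 antagonist with the trended prior (limma adjusted p 0.0305) and quantile normalization (0.0103), but not with the filter (0.206), and Col3a1 for inhibited against active with the trended prior (0.0111) and the filter (0.0392), but not with quantile normalization (0.0559). Without the block, the other priors, scalings and filter left all counts at 0. Leaving out 1 array gave 1 to 25 called clusters and 0 to 1 collagens for the EP4 antagonist (Col10a1 without EP4 antagonist replicate 1, limma adjusted p 0.00136), and 0 to 192 clusters and 0 to 1 collagens for inhibited against active. Of the latter, the blocked counts were 192 without GHMT replicate 1, 2 without diclofenac, 4 without EP4 antagonist replicate 1, 17 without diclofenac plus PGE2 and 0 without either array of set 2. The EP4 antagonist comparison with the block and an array left out could not be fitted, as no residual degrees of freedom remain.

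At a 1.5-fold limit, in place of 2-fold, the members counted were 11 with diclofenac, 9 with the EP4 antagonist in set 1 and 3 in set 2, 8 with diclofenac plus PGE2 (5 against diclofenac), 15 with the TGFb inhibitor, 9 with the Wnt inhibitor and 21 between the GHMT arrays. Over all clusters 10.4% to 12.8% passed that limit in the diclofenac, PGE2 and EP4 antagonist contrasts, 16.5% with the TGFb inhibitor, 16.7% with the Wnt inhibitor and 39% between the GHMT arrays; with both arrays at background left out, the 15 members became 11, the 21 became 12 and the 11 with diclofenac 7. Quantile normalization gave 1 with diclofenac plus PGE2 and 1 with the Wnt inhibitor, and counting only members above background on at least 1 of the 2 arrays compared gave 4 between the GHMT arrays. Of 272 single-gene differences under another scaling, 5 had another sign, among them Col3a1 with diclofenac plus PGE2, and the largest move was 0.38. Of 170 values with an array left out, all from fits without the block, 31 had another sign, and of 163 under other settings, 0 had. Leaving out 1 array in those fits makes the sets unequal between the groups, so a set difference enters the contrast. Its part in the sign changes was not tested. The number of arrays limits the precision.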
